A study of Xiphophorus maculatus with 24 samples.

Results

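The Rev-erb genes *nr1d2a* (ENSXMAG00000018709), *nr1d2b* (ENSXMAG00000017106) and *nr1d4b* (ENSXMAG00000002339) were followed over the day in platyfish skin. They are 3 of the 24209 genes of the deposited count table and were taken by their identifiers. In the RefSeq annotation of *X. maculatus* genome version 5.0, the version to which the authors mapped their reads, *nr1d2a* lies on chromosome 13 from 26471858 to 26482800, between *thrb* (a thyroid hormone receptor) and *rpl15* (a ribosomal protein), and *nr1d2b* on chromosome 3 from 7742999 to 7751085, both matched by the gene starts in the study's list of duplicates. The 3 genes belong to the 5 Rev-erb genes that the study names, and the other two, *nr1d1* and *nr1d4a*, are given only for comparison. In skin the mean level of the *nr1d4b* transcript was highest at 11 PM or 2 AM and lowest at 11 AM or 2 PM, whereas *nr1d2a* was high from 2 AM to 8 AM and *nr1d2b* was highest at 8 AM. The change over the day was far larger in *nr1d4b* than in *nr1d2b*, and *nr1d2a* lay between them.

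Rev-erb proteins are nuclear receptors that lack the activation function of most of their relatives. They bind the ROR element of DNA, bring co-repressors to it and shut down transcription. In the vertebrate clock their best known targets are the genes of the activators Bmal (*arntl* genes) and Clock. Bmal and Clock bind as a pair to E-box sequences and activate, among others, the Rev-erb genes, which closes a loop. Ror receptors bind the same element and activate from it. Mammals have the Rev-erb genes *NR1D1* and *NR1D2*, and bony fish also carry *nr1d4* genes. In the study's list of gene pairs left by the genome duplication of bony fish (Ohnologs), *nr1d2a* and *nr1d2b* form a pair.

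The samples were skin of untreated male *X. maculatus* Jp 163 A, an inbred platyfish line kept in 13 h of light and 11 h of dark, and each of the 24 libraries came from 1 fish. The older collection held 16 libraries of fish labelled as 24 months old, 2 every 3 h from 8 AM to 5 AM. The younger collection held 8 libraries of fish labelled as 12 months old, 2 each at 8 AM, 2 PM, 8 PM and 2 AM. The dates in the labels of these sets, called collections here, lie 2 years apart, so date and age cannot be told apart. Only the labels of the 12-month fish carry a number that matches the inbred generation given in the study's methods. Any difference in generation could not be told apart from date and age either. The labels do not say what the date marks. The study's methods give a single age, that of the younger fish, and name no second collection, so the ages used here are those of the labels. Fitted times are given as Zt, hours after lights on, on which 8 AM is Zt 0.5 and the dark phase begins at Zt 13, soon after the 8 PM sampling. The fish were fed in the morning and in the afternoon under a light cycle, which does not separate a clock from a response to light or food. The epidermal markers *krt5* and *epcam* together reached 16137 to 42001 CPM (counts scaled to equal library totals) in the libraries, and the muscle markers *ckma*, *ckmb*, *mylpfa* and *tnnt3a* together 2135 to 11251 CPM. In bulk skin, fewer cells of a type and less RNA per cell cannot be told apart.

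Libraries held 25736825 to 36066368 counted reads. The lowest count was 1418 reads for *nr1d2a*, 1312 for *nr1d2b* and 143 for *nr1d4b*, so the spread between fish and not counting error limits most values below. Replicate A at 5 PM (24-month fish) stood apart from the other libraries, with 4902 of 13378 genes below 0.5 times their median at that age, against at most 541 in any other library. Its 3 Rev-erb values were lower than those of the other fish at that time, and it is included below unless stated otherwise. CPM were taken over the total count of each library, and values of a time point are given as mean ± SD (n = 2).

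*nr1d2a* encodes a fish form of Rev-erb beta. Its transcript was, in the 24-month fish, at 384 and 330 CPM in the 2 fish of 8 AM and at 179 and 186 CPM at 11 AM. It was at 64.1 and 96.9 CPM at 2 PM, at 55.1 and 61.7 CPM at 5 PM, and at 51.6 and 101 CPM at 8 PM. The fish of 8 PM overlapped with those of 2 PM and of 5 PM, both fish of 2 PM lay above those of 5 PM, and all of them lay below both fish of 11 AM. At 11 PM the fish were far apart, at 234 and 68.7 CPM. They were at 327 and 288 CPM at 2 AM and at 324 and 370 CPM at 5 AM. In these fish the means of 8 AM (357 ± 38.4 CPM), 5 AM (347 ± 32.1 CPM) and 2 AM (308 ± 27.1 CPM) followed each other with overlap between neighbours, whereas both fish of 8 AM lay above those of 2 AM. In the 12-month fish *nr1d2a* was at 203 and 209 CPM at 8 AM, at 68.3 and 67.7 CPM at 2 PM, at 72.5 and 114 CPM at 8 PM, and at 191 and 224 CPM at 2 AM. At this age the 2 AM and 8 AM values overlapped, both above 8 PM, and 8 PM lay above 2 PM.

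*nr1d2b* is the Ohnolog of *nr1d2a*. Its fish agreed closely at every time, by a factor of at most 1.19. In the 24-month fish it was at 172 and 193 CPM at 8 AM, at 187 and 162 CPM at 11 AM, at 87.2 and 96.0 CPM at 2 PM, and at 51.0 and 60.9 CPM at 5 PM. It was at 56.1 and 58.9 CPM at 8 PM, at 75.9 and 68.6 CPM at 11 PM, at 123 and 111 CPM at 2 AM, and at 174 and 179 CPM at 5 AM. The high values of *nr1d2b* ran from 5 AM to 11 AM, whose fish overlapped, and the low values of 5 PM and 8 PM overlapped as well. Every other step in the order of the 8 means separated the fish of its neighbours. In the 12-month fish *nr1d2b* was at 176 and 174 CPM at 8 AM, at 118 and 126 CPM at 2 PM, at 94.3 and 86.0 CPM at 8 PM, and at 136 and 137 CPM at 2 AM, and no 2 of these times overlapped. Thus at 11 AM *nr1d2b* of the 24-month fish was still at the level of dawn, whereas both fish of *nr1d2a* had less than at dawn.

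*nr1d4b* belongs to the Rev-erb branch found in fish. In the 24-month fish it was at 21.1 and 24.3 CPM at 8 AM, at 4.44 and 7.31 CPM at 11 AM, at 7.27 and 7.30 CPM at 2 PM, and at 53.3 and 106 CPM at 5 PM. It was at 150 and 169 CPM at 8 PM, still in the light, at 257 and 203 CPM at 11 PM, at 294 and 139 CPM at 2 AM, and at 113 and 57.5 CPM at 5 AM. The fish of 11 PM and 2 AM overlapped at the top and those of 11 AM and 2 PM at the bottom. The highest mean was 39.2 times the lowest, against 6.11 times for *nr1d2a* and 3.26 times for *nr1d2b* in the same fish. In the 12-month fish *nr1d4b* was at 32.7 and 27.1 CPM at 8 AM, at 11.0 and 9.43 CPM at 2 PM, at 82.2 and 111 CPM at 8 PM, and at 291 and 308 CPM at 2 AM. No 2 of these times overlapped, and the highest mean was 29.3 times the lowest, against 3.05 times for *nr1d2a* and 1.94 times for *nr1d2b*.

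**Figure D1:**
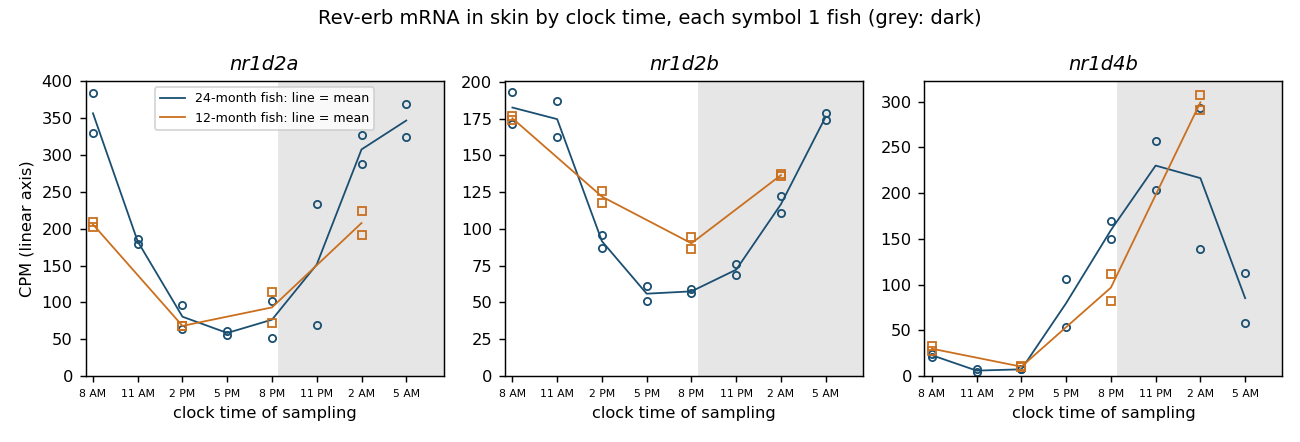
CPM (linear axes, each with its own range) of the 3 Rev-erb genes against clock time. Circles are 24-month fish, squares 12-month fish, lines join the means of 2 fish, and grey marks the dark phase. *nr1d2a* and *nr1d2b* were lowest between 2 PM and 8 PM and *nr1d4b* at 11 AM or 2 PM, and the 2 fish of 11 PM are far apart only for *nr1d2a*.

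Whether each gene varied over the day was tested with a 24-h cosine curve across all genes (edgeR quasi-likelihood test, Benjamini-Hochberg adjustment, collection as a term). Over both collections 3065 of 19783 genes passed (15.49%), and the 3 Rev-erb genes were among them. The adjusted p by edgeR was 1.82e-06 for *nr1d2a*, 7.74e-08 for *nr1d2b* and 1.23e-07 for *nr1d4b*. Amplitude, the distance from the fitted mean to the fitted peak on the log2 scale, was 2.51 for *nr1d4b* in this fit, and 12 of the 19783 genes had a larger one. The amplitude was 1.17 for *nr1d2a* and 0.77 for *nr1d2b*, with 246 and 865 genes above them. The 3 genes also passed in each collection alone, where 1.5% of 19212 genes passed in the 24-month fish and 36.6% of 18995 genes in the 12-month fish. Their adjusted p by edgeR was 0.000514 for *nr1d2a*, 1.08e-05 for *nr1d2b* and 0.000262 for *nr1d4b* in the 24-month fish, and 0.000819, 0.000375 and 4.6e-06 in the same order in the 12-month fish. Without replicate A of 5 PM the adjusted p by edgeR over both collections was 5.16e-06, 1.16e-07 and 2.95e-08 for *nr1d2a*, *nr1d2b* and *nr1d4b*. The 8 means of the 24-month fish rose once and fell once around the day for each of the 3 genes, a shape that 935 of 16963 expressed genes had (5.51%). For *nr1d2a* this shape was lost without replicate A of 11 PM, and for *nr1d2b* without replicate D of 8 AM and with the means over all 24 libraries.

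Dawn (8 AM, after lights on) and dusk (8 PM, before lights off) were then compared over the 2 collections, with 4 fish at each time. *nr1d2a* and *nr1d2b* were higher at dawn and *nr1d4b* was higher at dusk, and at both ages the fish of the times did not overlap. For *nr1d2a* the mean at dawn was 4.66 times that at dusk in the 24-month fish and 2.21 times in the 12-month fish, and the log2 difference in the joint fit was 1.73 (SE 0.26, edgeR adjusted p = 0.00104). For *nr1d2b* the ratio was 3.17 and 1.94 at these ages, with a log2 difference of 1.37 (SE 0.13, edgeR adjusted p = 3.15e-05). For *nr1d4b* the mean at dusk was 7.02 times that at dawn in the 24-month fish and 3.24 times in the 12-month fish, with a log2 difference, dawn minus dusk, of -2.25 (SE 0.26, edgeR adjusted p = 0.000131). Of 19550 genes 15% passed this comparison, 7.15% higher at dawn and 7.9% lower. The summed muscle markers were at 3915 to 11250 CPM at dawn and 2135 to 5281 CPM at dusk, and their part in these differences was not tested.

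The comparison of midnight (2 AM) with midday (2 PM) gave different values for the pair. *nr1d4b* was 29.7 times higher at midnight in the 24-month fish and 29.3 times in the 12-month fish, a log2 difference of 4.82 (SE 0.29, edgeR adjusted p = 1.75e-07). *nr1d2a* was 3.82 and 3.05 times higher at these ages, a log2 difference of 1.72 (SE 0.25, edgeR adjusted p = 0.0019). For *nr1d2b* the log2 difference was 0.20 (SE 0.13, edgeR adjusted p = 0.331) and did not pass, although its fish did not overlap at either age, with ratios of 1.27 and 1.12. At 2 AM *nr1d2a* thus lay below its 8 AM values in the 24-month fish and overlapped with them in the 12-month fish, and *nr1d2b* was between its values of 8 PM and 8 AM. In this comparison 10.8% of genes passed, 5.55% of them higher at midnight and 5.23% lower, as shares of the 19550 tested.

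Peak times were read from a 24-h cosine curve fitted by least squares to log2(CPM + 0.5), with 95% intervals. Over the 24 libraries *nr1d4b* peaked at Zt 16.4 (15.9 to 16.96), close to midnight. *nr1d2a* peaked at Zt 21.7 (21.0 to 22.5), just after the 5 AM sampling, and *nr1d2b* at Zt 23.9 (23.3 to 24.5), at the change from dark to light. *nr1d4b* therefore led *nr1d2a* by 5.32 h (4.37 to 6.27) and *nr1d2b* by 7.45 h (6.73 to 8.18). Within the pair *nr1d2a* led *nr1d2b* by 2.13 h (1.37 to 2.89). None of these 3 intervals includes 0, so the order *nr1d4b*, *nr1d2a*, *nr1d2b* exceeded the spread between fish. The order was the same in each collection alone. In the 24-month fish the lead of *nr1d4b* was 5.99 h (4.83 to 7.16) over *nr1d2a* and 7.84 h (7.04 to 8.64) over *nr1d2b*, and in the 12-month fish it was 3.70 h (2.50 to 4.90) and 6.63 h (5.98 to 7.28). The lead of *nr1d2a* over *nr1d2b* was 1.85 h (0.95 to 2.75) in the 24-month fish and 2.93 h (1.28 to 4.58) in the 12-month fish. Samples were 3 h apart in the 24-month fish and 6 h apart in the 12-month fish, so peaks between sampled times rest on the cosine shape. Without replicate A of 5 PM, the library that stood apart, the peaks were at Zt 16.5 for *nr1d4b*, Zt 21.7 for *nr1d2a* and Zt 24.0 for *nr1d2b*. With a 12-h curve added, *nr1d4b* peaked at Zt 17.7 and *nr1d2b* at Zt 0.73.

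The amplitudes of the least squares fit differed as well. The log2 amplitude was 2.59 (2.21 to 2.96) for *nr1d4b*, 1.26 (1.0 to 1.51) for *nr1d2a* and 0.79 (0.67 to 0.91) for *nr1d2b*. The fitted peak was thus 36.1 times the trough for *nr1d4b*, 5.71 times for *nr1d2a* and 2.99 times for *nr1d2b*. The curve took up 91.3%, 84.2% and 90.0% of the variance within collections in that order.

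Over both collections the fitted peaks of the remaining Rev-erb genes fell between those of *nr1d4b* and *nr1d2a*. *nr1d1*, Rev-erb alpha, peaked at Zt 20.5 (19.9 to 21.1), after *nr1d4b* by 4.07 h (3.32 to 4.82) and before *nr1d2a* by 1.25 h (0.30 to 2.19). *nr1d4a* peaked at Zt 18.6 (17.7 to 19.6), after *nr1d4b* by 2.23 h (1.21 to 3.25). The 5 genes of this list all passed the rhythm test over both collections, with a median amplitude of 1.68 in the edgeR fit against 0.25 over all genes tested. In the comparison of dawn with dusk *nr1d4a* differed by a log2 value of 0.15 (SE 0.30, edgeR adjusted p = 0.759), where *nr1d4b* was lower at dawn and *nr1d2a*, *nr1d2b* and *nr1d1* were higher.

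**Figure D2:**
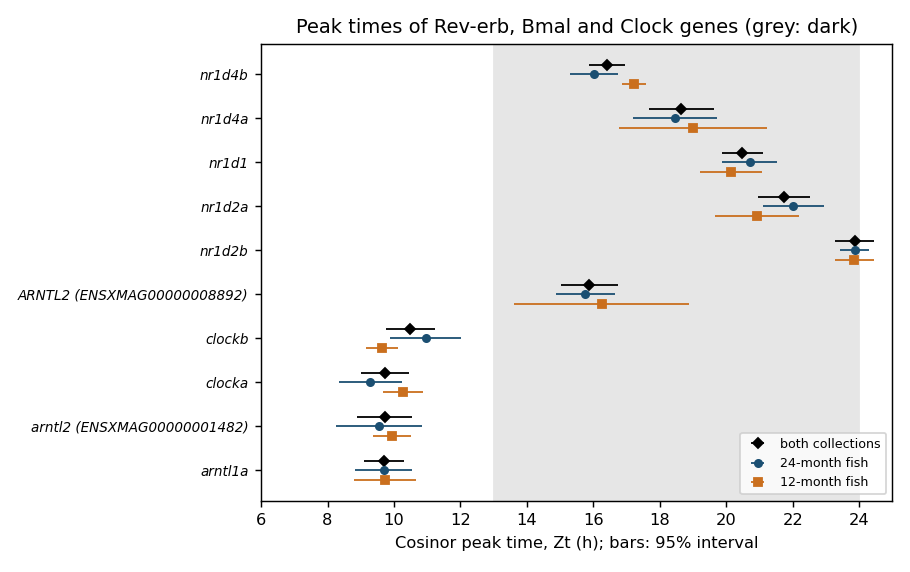
Peak time (Zt, h) of the Rev-erb genes and of the Bmal and Clock genes from 24-h cosine curves on log2(CPM + 0.5), with 95% intervals, over both collections and in each alone; grey marks the dark phase. The Rev-erb peaks run from Zt 16.4 (*nr1d4b*) to Zt 23.9 (*nr1d2b*), and 4 of the 5 activator genes peak between Zt 9.70 and Zt 10.5.

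The ratio of *nr1d2a* to *nr1d2b* within a library does not depend on library size. Its level also reflects the lengths of the gene models, so only its changes are read here. The sources used here do not state how reads that match several genes were treated, so the counts of a duplicate pair are uncertain to that extent. The ratio of counts in the 24-month fish was 2.24 and 1.70 at 8 AM, 0.96 and 1.15 at 11 AM, 0.73 and 1.01 at 2 PM, and 1.08 and 1.01 at 5 PM. It was 0.92 and 1.72 at 8 PM, 3.08 and 1.0 at 11 PM, 2.66 and 2.60 at 2 AM, and 1.86 and 2.07 at 5 AM. Both fish of 2 AM exceeded every fish of the other times except 1 fish of 11 PM. In the 12-month fish it was 1.15 and 1.20 at 8 AM, 0.58 and 0.54 at 2 PM, 0.77 and 1.32 at 8 PM, and 1.41 and 1.63 at 2 AM, where midnight was again highest and midday lowest.

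The log2 ratio varied over the day with an amplitude of 0.72 (95% interval 0.50 to 0.95) and a peak at Zt 19.4 (18.2 to 20.5), a 2.72-fold change from trough to peak. A permutation test of clock times within collections, 100000 resamples, two-sided, gave p = 6e-05. The log2 ratio is the difference of the log2 courses of *nr1d2a* and *nr1d2b*. Its rhythm therefore restates their unequal amplitudes and peak times and is not a separate result. The amplitude in the 24-month fish was 0.72 (permutation p = 0.0029) and in the 12-month fish it was 0.73 (permutation p = 0.013). Without replicate A of 5 PM the amplitude over both collections was 0.74. The share of *nr1d2a* in the pair was thus larger at midnight than at midday at both ages. At the 4 shared clock times the ratio was lower in the 12-month fish than in the 24-month fish, by a log2 value of -0.62 or 0.65 times, and lower at 4 of 4 times. An exact permutation test of the collection within clock times, two-sided, 1296 arrangements, gave p = 0.0077, where the smallest p it allows is 0.0015. Level differences between the collections were common. Over all genes their log2 values had a lower decile of -0.75 and an upper decile of 0.83, and 53% of 19550 genes passed. Ratios of other gene pairs were not tested, so this p does not set the pair apart.

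**Figure D3:**
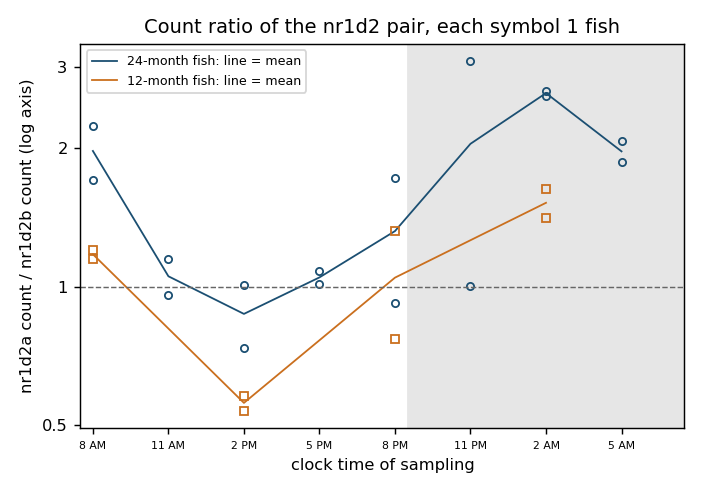
Ratio of the *nr1d2a* count to the *nr1d2b* count (log axis) against clock time. Circles are 24-month fish, squares 12-month fish, lines join the means of 2 fish, the dashed line marks equal counts and grey marks the dark phase. The ratio was highest at 2 AM and lowest at 2 PM at both ages by the mean of the fish, and the 12-month fish were at 0.54 to 1.63 against 0.73 to 3.08 in the 24-month fish.

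The known targets of Rev-erb were placed beside these curves. *arntl1a* (Bmal1) was at 5.87 ± 0.77 CPM at 8 AM and 52.9 ± 2.85 CPM at 8 PM in the 24-month fish, and at 5.30 ± 2.88 and 49.6 ± 2.67 CPM in the 12-month fish. *clocka* was at 8.71 ± 0.52 and 64.2 ± 4.16 CPM at these times in the 24-month fish and at 4.51 ± 2.01 and 104 ± 4.53 CPM in the 12-month fish. At dawn, when *nr1d2a* and *nr1d2b* were high, both activators were thus low. The fitted curve of *arntl1a* peaked at Zt 9.70 (9.10 to 10.3), close to the 5 PM sampling. That of *arntl2* (ENSXMAG00000001482) peaked at Zt 9.72 (8.90 to 10.5), *clocka* at Zt 9.72 (9.01 to 10.4) and *clockb* at Zt 10.5 (9.75 to 11.2). By mean CPM, however, *arntl1a* and *clocka* were highest at 8 PM at both ages, later than their fitted peaks. At 5 PM, sampled only in the 24-month fish, *arntl1a* was at 24.9 and 57.1 CPM. The lags below are counted from the fitted peaks. A second *ARNTL2* gene (ENSXMAG00000008892) had another phase, with a peak at Zt 15.9 (15.0 to 16.7), soon after the 11 PM sampling.

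In the fit of both collections the lag from each Rev-erb peak to the next activator peak differed between the 3 genes. From *nr1d2a* it was 11.97 h (10.9 to 13.0) to *arntl1a*, 11.98 h (10.7 to 13.3) to *arntl2*, 11.99 h (10.8 to 13.2) to *clocka* and 12.8 h (11.7 to 13.9) to *clockb*. *nr1d2a* and these 4 genes were thus in antiphase within the error of the 24-h curve. With a 12-h curve added the lag was 13.39 h to *arntl1a*, 14.81 h to *arntl2* and 13.47 h to *clocka*. These values lie outside the intervals above, so the antiphase rests on the 24-h curve. From *nr1d2b* it was 9.84 h (8.79 to 10.9) to *arntl1a*, 9.85 h (8.63 to 11.1) to *arntl2*, 9.86 h (8.66 to 11.1) to *clocka* and 10.6 h (9.61 to 11.6) to *clockb*. The *nr1d2b* peak thus fell 2.16 h after the fitted trough of *arntl1a* and 1.37 h after that of *clockb*, and in this fit no interval of these 4 lags reached 12 h. In the 24-month fish alone the interval from *nr1d2b* to *clockb* was 9.77 to 12.4 h. With a 12-h curve added, however, the lag from *nr1d2b* to *arntl2* was 12.27 h. From *nr1d4b* it was 17.3 h to *arntl1a* (16.5 to 18.1), *arntl2* (16.4 to 18.3) and *clocka* (16.5 to 18.2) and 18.1 h (17.2 to 19.0) to *clockb*. Fitted by age, the lag from *nr1d4b* to *clockb* was 18.9 h (17.7 to 20.2) in the 24-month fish and 16.4 h (15.7 to 17.1) in the 12-month fish. These intervals do not overlap, whereas those to *arntl1a*, *arntl2* and *clocka* overlapped between the ages. Counted the other way, *nr1d4b* peaked 6.71 h after *arntl1a* and 5.29 h before its trough, while the activator transcripts were still on their way down.

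The second *ARNTL2* gene peaked nearest to *nr1d4b* among these activators. In the 24-month fish *ARNTL2* was at 27.5 ± 5.78 CPM at 2 PM, 74.1 ± 23.1 CPM at 5 PM, 187 ± 33.2 CPM at 8 PM, 202 ± 8.57 CPM at 11 PM, 128 ± 30.1 CPM at 2 AM and 77.6 ± 12.4 CPM at 5 AM. It had thus fallen by 2 AM, when *nr1d4b* was at 216 ± 109 CPM against 230 ± 38.3 CPM at 11 PM. Its fitted peak came 0.54 h before that of *nr1d4b*, and the interval of the lag from *nr1d4b* to the next *ARNTL2* peak, 22.6 to 24.3 h, includes a full cycle. With a 12-h curve added this lag was 20.67 h, so the nearness of the peaks rests on the 24-h curve. In the 12-month fish, however, *ARNTL2* was at 239 ± 16.9 CPM at 8 PM and 172 ± 17.4 CPM at 2 AM, whereas *nr1d4b* was 96.6 ± 20.4 and 299 ± 11.5 CPM.

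**Figure D4:**
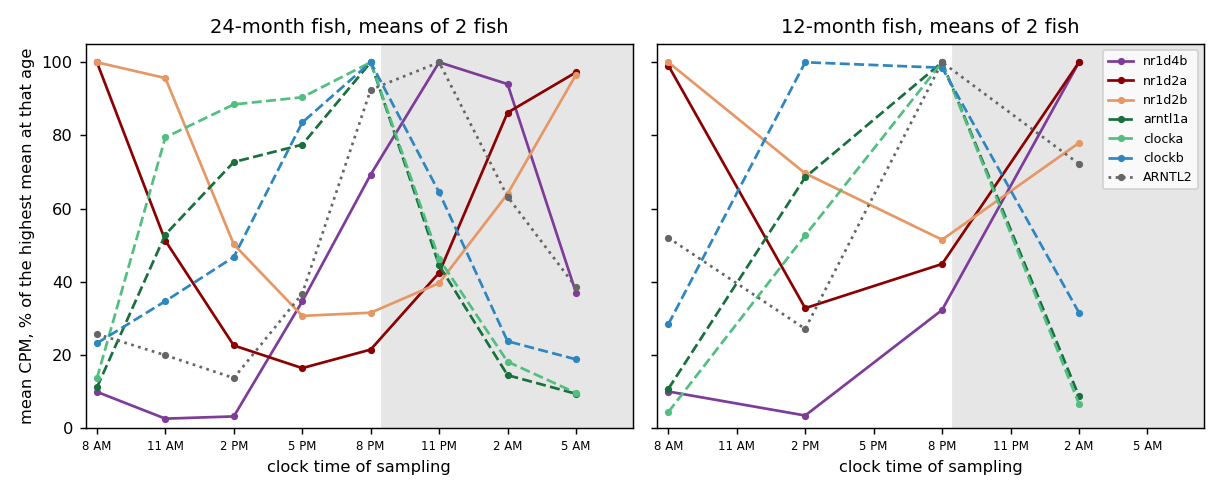
Mean CPM of 2 fish as a percent of the gene's highest mean at that age, against clock time, for the 3 Rev-erb genes (solid lines), *arntl1a*, *clocka* and *clockb* (dashed) and the second *ARNTL2* gene (dotted), in the 24-month and the 12-month fish; grey marks the dark phase. *arntl1a* and *clocka* fall after 8 PM while *nr1d4b* is rising or high, and they are lowest at 2 AM to 8 AM, when *nr1d2a* is high. At 2 AM *nr1d4b* is high as well, and in the 12-month fish its mean is highest then.

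Between the collections the level was compared at the 4 shared clock times, 8 fish against 8. *nr1d2b* was higher in the 12-month fish by a log2 value of 0.31 (SE 0.05, edgeR adjusted p = 0.000617). *nr1d2a* had a value of -0.33 (SE 0.15, edgeR adjusted p = 0.0768) and *nr1d4b* one of 0.16 (SE 0.13, edgeR adjusted p = 0.314), and neither passed. Without replicate C of 2 PM, replicate C of 8 PM (both 24-month) or replicate B of 8 PM (12-month) *nr1d2a* passed, with edgeR adjusted p of 0.0431, 0.0131 and 0.0347, and without replicate C of 2 AM (24-month) *nr1d4b* passed, at 0.31 and 0.00554. Since 53% of the 19550 genes passed, 25.5% higher and 27.4% lower in the 12-month fish, a call for *nr1d2b* does not set it apart. The summed fibroblast markers *col1a2*, *pdgfra* and *dcn* were at 853 to 4396 CPM in the 24-month fish of these times and at 3614 to 7232 CPM in the 12-month fish, and the leukocyte marker *lcp1* at 104 to 242 and 201 to 325 CPM. Their part in the level difference was not tested.

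The rhythm itself was also compared between the collections. By edgeR 0 of 19783 genes passed (0%), with 2435 at an unadjusted p under 0.05, whereas DESeq2 called 428. For *nr1d2b* the edgeR adjusted p was 0.196 (unadjusted 0.00266) and the DESeq2 adjusted p was 0.0117. The edgeR adjusted p was 0.63 for *nr1d2a* and 0.382 for *nr1d4b*. The range of *nr1d2b* was smaller in the 12-month fish, which at 8 PM were at 86.0 and 94.3 CPM against 56.1 and 58.9 CPM in the 24-month fish, while at 8 AM the ages overlapped. For *nr1d2a*, whose differences of level and rhythm did not pass, the fish of 8 AM were at 203 and 209 CPM in the 12-month fish and at 330 and 384 CPM in the 24-month fish, with midday values of 67.7 and 68.3 CPM against 64.1 and 96.9 CPM.

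Genes with the most similar course were sought by Pearson's r of the mean log2(CPM + 0.5) over the 12 combinations of collection and clock time, among 13377 other genes with at least 5 CPM on average. These r share libraries and depth and are descriptions. For *nr1d2a* the highest were ENSXMAG00000026233 (r = 0.97), *ciarta* (0.97), *aspa* (0.96), *TINAGL1* (0.95) and ENSXMAG00000027468 (0.95). *ciarta* encodes a circadian repressor of Bmal and Clock, and *aspa* encodes aspartoacylase. For *nr1d2b* they were the lipase genes *abhd2b* (0.97) and *abhd2a* (0.96), the clock gene *per3* (0.96), ENSXMAG00000029843 (0.95) and the transporter gene *abcc5* (0.94). *nr1d2a* and *nr1d2b* had an r of 0.84 with each other, which placed *nr1d2b* at rank 97 for *nr1d2a*. For *nr1d4b* the most similar were ENSXMAG00000016662 (0.97), *RRAGB* (0.96), *ap5s1* (0.96), *atg10* (0.95) and ENSXMAG00000015043 (0.95). Their amplitudes were 0.13 to 0.55 on the log2 scale, so that they shared the shape of *nr1d4b* and not its size, and *RRAGB*, *atg10* and ENSXMAG00000015043 did not pass the rhythm test (edgeR adjusted p = 0.328, 0.143 and 0.107). The second *ARNTL2* gene was at rank 26 for *nr1d4b*, with an r of 0.90.

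In the rest of the clock, 6 of 6 tested Bmal and Clock genes, 2 of 4 Ror genes, 11 of 12 Per, Cry and other E-box repressors and 7 of 7 D-box factors passed the rhythm test over both collections, where 15.49% of all genes did. The Ror genes are the activators at the element to which Rev-erb binds. *rorcb* had an amplitude of 2.16 and a peak at Zt 6.83 and *rorca* an amplitude of 1.16 and a peak at Zt 6.08 (edgeR adjusted p = 4.21e-10 and 1.17e-05), when *nr1d4b* was at its lowest. *rora* and *rorb* did not pass. Among the E-box repressors *per1b* had the largest amplitude (2.66, peak at Zt 21.8) and *bhlhe41* the smallest of those that passed (0.70, peak at Zt 21.0). Among the D-box factors *dbpb* had the largest amplitude (2.87, peak at Zt 20.8) and *tefa* the smallest (0.46, peak at Zt 23.5).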

How the data were processed

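Reads, trimmed for adaptors and quality, were aligned by the authors to *X. maculatus* genome version 5.0 with TopHat2. FeatureCounts then gave the deposited raw counts per Ensembl release 94 gene for 24 skin libraries. The sources used here do not state tool versions, strand settings or the treatment of reads that match several genes. Date and age were read from the labels. The titles do not say what a replicate letter shares, but among the 12-month fish the deviations of same-letter libraries correlated in each of 6 pairs of clock times (0.127 to 0.329), and the letter was tried as a block. Names for 9918 of 24209 identifiers came from the study's supplementary tables, symbols holding a point, a colon or a chromosome number left out. The genes and lists were chosen with earlier results of these data known. Tests across genes used edgeR 4.0.16 (R 4.3.3) with TMM, the filterByExpr filter and adjusted p under 0.05, tested on simulated data, and DESeq2 1.42.0 as the alternative. Contrasts at the 4 shared clock times had collection as a term. Peak times used least squares with delta-method errors (numpy 2.4.6, scipy 1.17.1). The study's rank test was not run, and the edgeR test of a 24-h cosine curve on the libraries took its place. The count of genes with a single rise and fall is a description and not a test. Named genes were the 5 Rev-erb, the 5 Bmal and Clock genes drawn by the study, the 5 most similar genes of each Rev-erb gene, and the largest and smallest amplitude in each list; *rora*, *rorb*, *krt5*, *epcam* and other markers were named beside them. Protein and promoter sequences were not analysed here. The fish of a time point are separate animals, and the 2 libraries of every time differed by more than counting error. Limits of detection, 3 counts, were 0.083 to 0.12 CPM and cover counting error only.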

Additional observations from a re-analysis of the deposited data

Results flagged for a closer look

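The log2 amplitude of *nr1d2b* and that of *nr1d2a* differed between the collections when both were fitted on the 4 shared clock times only, a comparison added after the data were seen. For *nr1d2b* it was 0.85 (SE 0.04) in the 24-month fish and 0.48 (SE 0.03) in the 12-month fish, a difference, 12-month minus 24-month, of -0.36 (95% interval -0.48 to -0.25). For *nr1d2a* it was 1.51 (SE 0.19) and 0.99 (SE 0.13), a difference of -0.51 (-1.01 to -0.01), an interval that ends close to 0. The difference was -0.19 (-0.80 to 0.43) for *nr1d4b*. These are 2 of 9 such differences of amplitude, peak time and gap, without adjustment, and the other 7 intervals include 0. The edgeR test of the rhythm difference over all libraries did not call either gene. Date and age cannot be told apart here.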

How the results depend on the processing

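Of 1442 values under alternatives 1393 were classed as unchanged, 49 were not, and 0 turned in direction. For tests of single genes, unchanged meant the same direction and side of the threshold. Peak times, amplitudes and lags had to stay within the interval of the fit given above, and gene counts close to the count given above. The 49 thus include moved peaks and lags and changed gene counts, which have no side of a threshold. The rhythm, dawn and dusk calls of the 3 Rev-erb genes, and the midnight calls of *nr1d4b* and *nr1d2a*, held in every alternative run. Rhythm calls over all genes and both collections were 1649 without a collection term and 1530 with 12-h curves added, and 2156 to 5115 when 1 library was left out (5115 without replicate A of 5 PM). DESeq2 gave 1692 calls in the 24-month fish, where the edgeR calls were 136 to 1132 with 1 library left out, and leaving out either fish of 5 PM gave 716 (A) and 1132 (B). In the 12-month fish leaving out 1 library gave 4605 to 6922 calls. Rhythm differences were 428 by DESeq2, which also called *nr1d2b* (0.43, adjusted p = 0.0117). Dawn and dusk calls were 1190 to 4144 and midnight and midday calls 343 to 3058 with 1 library left out, and 3717 by DESeq2. The level difference ranged from -0.42 to -0.19 for *nr1d2a* and from 0.064 to 0.31 for *nr1d4b*. The cause of these shifts was not tested. Genes with a single rise and fall numbered 553 to 989 when 1 library of 24-month fish was left out; the shape was kept (1) or lost (0) for *nr1d2a* and *nr1d2b*, and was 0 for *nr1d2b* with all 24 libraries.

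With 12-h curves the peak of *nr1d4b* moved to Zt 17.69 and that of *nr1d2b* to Zt 0.73. The lag from *nr1d2a* became 13.39 h to *arntl1a*, 14.81 h to *arntl2*, 13.47 h to *clocka* and 16.17 h to *ARNTL2*. From *nr1d2b* it became 12.27 h to *arntl2* and 13.63 h to *ARNTL2*, and from *nr1d4b* 19.31 h and 20.67 h. The lead of *nr1d4b* over *nr1d2a* stayed between 4.50 and 5.58 h and that over *nr1d2b* between 7.04 and 7.93 h over the alternatives.

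Same-letter libraries of the 24-month fish had deviations correlated by -0.253 to 0.298. With the title letter as a replicate block, rhythm calls were 177 in these fish, 6592 in the 12-month fish and 2821 over both, and no call of the 3 Rev-erb genes changed. It was not run for the level difference, where letters and collections coincide. With 2 fish per time an SD has 1 degree of freedom, and peaks between sampled times rest on the fitted curve.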

Other observations

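At 11 PM *nr1d2a* of the 24-month fish was 3.41 times higher in replicate A than in replicate B, the widest gap between fish of 1 time for this gene. *ciarta*, among the genes most similar to *nr1d2a*, was at 17.3 CPM in replicate A and 3.25 CPM in replicate B, 5.32 times apart. The other Rev-erb genes were closer in the same fish, at 75.9 and 68.6 CPM for *nr1d2b*, 257 and 203 CPM for *nr1d4b*, 67.5 and 63.0 CPM for *nr1d4a* and 13.9 and 8.74 CPM for *nr1d1*. *arntl1a* was at 24.0 and 23.04 CPM and *per3* at 32.2 and 35.9 CPM. Other clock genes differed in the direction of *nr1d2a*, with *dbpb* at 74.4 and 28.6 CPM, *tefb* at 121 and 43.7 CPM and *per1b* at 47.3 and 25.2 CPM, and *per2* in the other, at 10.8 and 20.7 CPM. These genes were chosen after their values were seen. At 2 AM it was the *nr1d4* genes of the 24-month fish that differed between fish, by 2.11 times for *nr1d4b* and 3.10 times for *nr1d4a*, where *nr1d2a* differed by 1.13 times. Both were lower in replicate D, the library with the second highest number of genes below 0.5 times their median at that age (541 of 13378). It also had the lowest summed epidermal (16137 CPM) and leukocyte (104 CPM) markers of all libraries, and their part in these gaps was not tested.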
